A study of Rattus norvegicus with 10 samples.

Results

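The miRNAs described here are those linked to myeloid cells and to inflammation: miR-223, miR-146a, miR-146b, miR-155 and miR-21. They were chosen by name, from all rows of the count files whose name begins with one of these 5 stems, and not by their values. Earlier results of these data were known at that choice. The stems found 8 of the 723 mature miRNAs listed, namely rno-miR-223-3p, rno-miR-146a-5p, rno-miR-146b-5p and rno-miR-21-5p, which are the main arms (rno stands for the rat and is left out below), and the opposite arm of each of these 4 hairpins. No row was found for miR-155, which was therefore not analysed here.

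A miRNA is cut from a hairpin RNA and guides a silencing complex to messages that pair with its seed, bases 2 to 8 of the mature strand. miR-223 is the classical myeloid miRNA, abundant in neutrophils and monocytes. The transcription of miR-146a is switched on by NF-kappaB, and miR-146a-5p represses the adaptors IRAK1 and TRAF6 in a negative feedback on the same pathway. miR-21 is common to many cell types, and its level rises in inflamed, healing and fibrotic tissue.

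The data are small RNA sequencing counts of tissue from female Wistar rats, all of them with collagen-induced arthritis (CIA), an experimental arthritis raised by immunisation with type II collagen. The 10 libraries form 5 groups of 2, which are CIA_B, before any therapy, MS_E and MS_A, given mechanical stimulation with a manipulated needle (AP in the labels), and PLA_E and PLA_A, given placebo. Tissue of the E groups was sampled 1 h after treatment, and that of the A groups at 34 days, after the course of therapy. No group without arthritis was analysed here, and the labels number the libraries of a group as replicates without saying whether they come from separate animals, so the p-values measure the spread between these libraries, which may be technical. The labels name muscle below the epidermis as the tissue, the paper subcutaneous tissue with its muscle, and the series description also mentions blood. The muscle miRNA miR-133a-3p, at 67933 to 139388 cpm (counts per 1000000 reads of a library), was abundant in every library.

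Reads on miRNAs numbered from 1513799 in CIA_B replicate 1 to 8926170 in MS_E replicate 1. Levels are given in cpm after TMM scaling (factors from 0.675 to 1.41), on which 1 count equals 0.122 to 0.866 cpm. In each group 1 library held far more miR-1-3p, a miRNA of striated muscle, than the other (80416 to 122986 against 10117 to 15567 cpm), and the leukocyte miRNAs miR-142-3p, miR-142-5p and miR-150-5p summed to 12713 cpm in PLA_A replicate 1 against 522 to 1736 cpm in the other 9 libraries. The 8 miRNAs together took 0.325% to 1.24% of the reads.

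The mature sequences of the main arms are shown because the comparison of miR-146a with miR-146b rests on them, with the seed in capitals, as listed by RefSeq for the build GRCr8, in which all 8 miRNAs were found.

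miR-223-3p: uGUCAGUUugucaaauacccc

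miR-146a-5p: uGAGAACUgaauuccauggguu

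miR-146b-5p: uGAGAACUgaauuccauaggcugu

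miR-21-5p: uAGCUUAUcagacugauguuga

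miR-21-3p: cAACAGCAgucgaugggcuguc

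The strand miR-21-3p stands with them as the only opposite arm with more than 20 counts in any library. miR-146a-5p and miR-146b-5p have the same seed, GAGAACU, and none of the other miRNAs with a RefSeq sequence (645 of the 723 listed have one) shares it. The seeds of miR-223-3p, miR-21-5p and miR-21-3p are each found once among these 645. The first 17 bases of miR-146a-5p and miR-146b-5p are identical. Counted from the 5′ end, miR-146b-5p differs from miR-146a-5p by G18A and U21C and is 24 bases long against 22. The shortest reads the authors kept, of 18 bases, reach only the first of these differences, so the division of short reads between this pair is uncertain.

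The 4 hairpins come from separate loci, given here in GRCr8. Mir223 lies at chrX:65151383-65151492 on the plus strand within a gene of a long non-coding RNA, and Mir146a at chr10:28349996-28350090 on the minus strand within another. Mir146b, at chr1:255144860-255144947 on the plus strand, lies within the protein-coding gene C1h10orf95. Mir21, at chr10:71902600-71902691 on the minus strand, overlaps no other gene of the RefSeq table, and its nearest neighbours are Vmp1, 532 bases away, and Tubd1, 13869 bases away.

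miR-223-3p was lowest before therapy. Its level was 10.4 and 28.1 cpm in CIA_B replicates 1 and 2, 64.7 and 70.1 cpm in MS_E, and 52.0 and 25.1 cpm in PLA_E. At 34 days it was 57.4 and 51.6 cpm in MS_A and 43.3 and 45.9 cpm in PLA_A. The libraries of MS_E, MS_A and PLA_A all lay above both CIA_B libraries, while PLA_E replicate 2 lay between them. In order of their means the groups were CIA_B (19.2 ± 12.5 cpm, SD, n = 2), PLA_E (38.6 ± 19.0), PLA_A (44.6 ± 1.84), MS_A (54.5 ± 4.14) and MS_E (67.4 ± 3.83). Of the neighbours in this order, CIA_B and PLA_E overlapped, as did PLA_E and PLA_A. miR-223-3p is a scarce miRNA in this tissue, and the value of CIA_B replicate 1 rests on 12 counts, for which the exact 95% Poisson interval is 5.37 to 18.1 cpm. This interval and those that follow cover counting error only, since reads amplified by PCR are not independent molecules.

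miR-21-5p was also lowest before therapy, but highest in PLA_A. It was counted at 1461 and 3067 cpm in CIA_B, 4167 and 3128 cpm in MS_E, and 4974 and 4061 cpm in PLA_E. MS_A had 5704 and 2549 cpm, and PLA_A 5311 and 6661 cpm. Only MS_A replicate 2 of the 8 libraries after therapy fell below the higher CIA_B library. The group means were 2264 ± 1136 cpm in CIA_B, 3647 ± 735 in MS_E, 4126 ± 2231 in MS_A, 4518 ± 646 in PLA_E and 5986 ± 954 in PLA_A (SD, n = 2). In this order the neighbours CIA_B and MS_E did not overlap, nor did PLA_E and PLA_A, while the others did. For both miR-223-3p and miR-21-5p, 7 of 8 libraries after therapy lay above both libraries of CIA_B, a count that 30 of the 359 tested miRNAs reached (8.36%).

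miR-146a-5p varied less and in another order. Its level was 959.8 and 1053 cpm in CIA_B, 2815 and 1271 cpm in MS_E, 1063 and 1246 cpm in PLA_E, 1629.5 and 832 cpm in MS_A, and 1829.8 and 1021 cpm in PLA_A. The highest library was MS_E replicate 1, the next PLA_A replicate 1, and the lowest MS_A replicate 2. The means ran from 1007 ± 66.1 cpm in CIA_B over 1154 ± 129.8 in PLA_E, 1231 ± 564 in MS_A and 1425 ± 572 in PLA_A to 2043 ± 1092 in MS_E (SD, n = 2). CIA_B and PLA_E did not overlap, and every later pair of neighbours in this order did.

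miR-146b-5p, the seed partner of miR-146a-5p, was highest in MS_E replicate 1. It was found at 1819 and 1729.9 cpm in CIA_B, 7430.5 and 2307 cpm in MS_E, 2645 and 1788 cpm in PLA_E, 3181 and 1521 cpm in MS_A, and 1433 and 1538 cpm in PLA_A. MS_E replicate 1 was thus 4.12 times the median of the 10 libraries and 3.22 times MS_E replicate 2. The means were 1486 ± 74.0 cpm in PLA_A, 1775 ± 63.2 in CIA_B, 2216 ± 606 in PLA_E, 2351 ± 1174 in MS_A and 4869 ± 3623 in MS_E (SD, n = 2), and only PLA_A and CIA_B were neighbours without overlap. The same library was also the highest of the 10 for miR-146a-5p and miR-21-3p, as it was for 60 of the 359 tested miRNAs (16.7%).

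**Figure D1:**
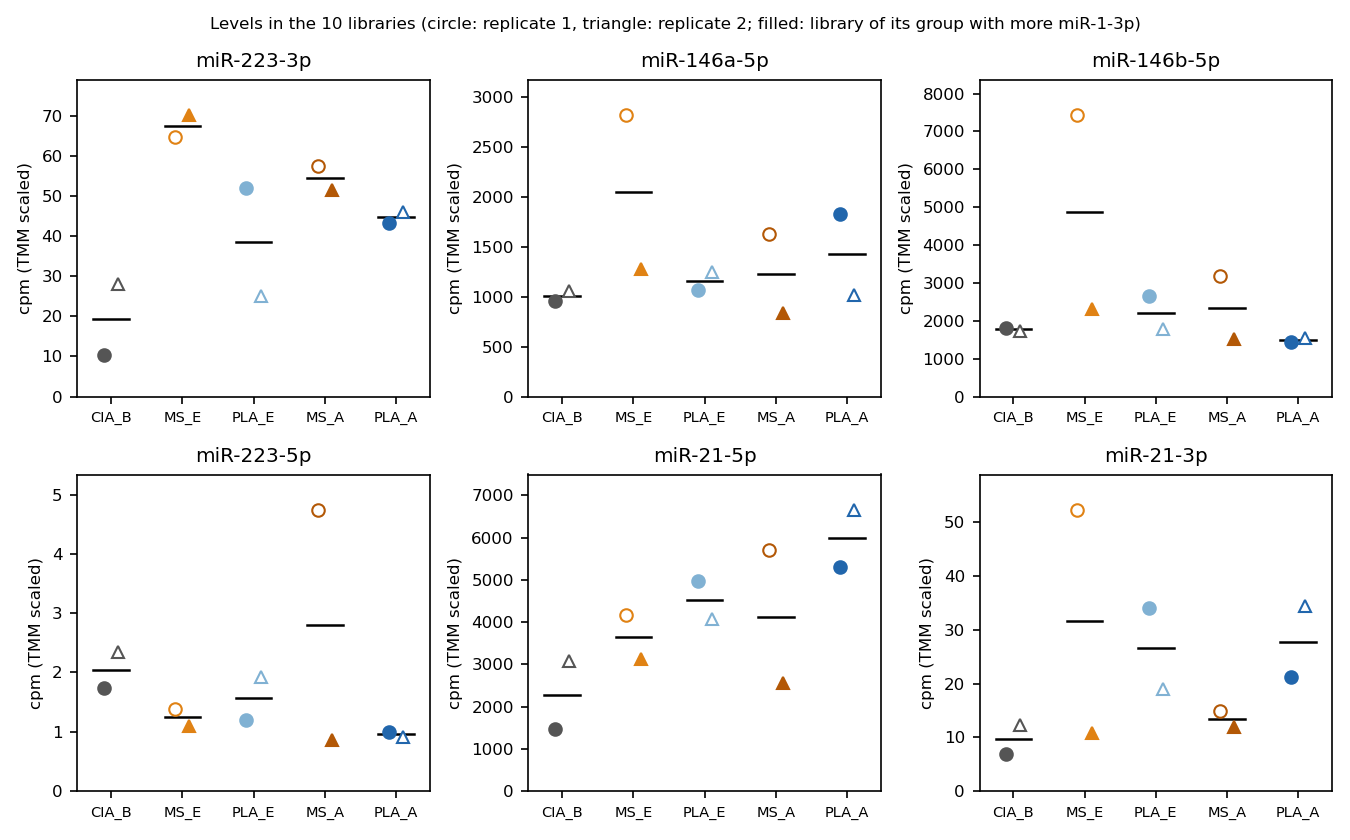
Levels in cpm (linear axes from 0) of the 6 tested miRNAs in the 10 libraries, by group. Circles are replicate 1, triangles replicate 2, bars the mean of a group, and filled symbols the library of each group with more miR-1-3p. Both CIA_B libraries of miR-223-3p lie at or below 28.1 cpm, and MS_E replicate 1 stands apart for miR-146b-5p at 7430.5 cpm.

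The opposite arms were much rarer than the main arms. miR-21-3p, which has been described as a functional strand in its own right, ranged from 6.92 cpm (8 counts) in CIA_B replicate 1 to 52.3 cpm in MS_E replicate 1. It had 12.4 cpm in CIA_B replicate 2 and 10.8 cpm in MS_E replicate 2, 34.0 and 19.0 cpm in PLA_E, 15.0 and 11.8 cpm in MS_A, and 21.2 and 34.5 cpm in PLA_A. The libraries of PLA_E and PLA_A all lay above those of CIA_B, whereas MS_E and MS_A overlapped with it. miR-223-5p was counted 2 to 20 times per library, from 0.853 to 4.75 cpm, with the highest value in MS_A replicate 1. miR-146a-3p, at 0 to 6 counts, and miR-146b-3p, at 1 to 7 counts, were below the filter of 1 cpm in at least 5 libraries and were not tested. A count of 0, as miR-146a-3p had in CIA_B replicate 1 and PLA_E replicate 2, is taken here to allow up to 3 counts, which correspond to 2.60 and 0.828 cpm. The exact 95% Poisson interval reaches somewhat further, to 3.69 counts.

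The study asked how the tissue responded to stimulation or placebo early and late in the therapy, which was tested here by comparing each group with CIA_B. These 4 comparisons share the CIA_B libraries and are not independent of each other. All 359 miRNAs that passed the filter were fitted together with the quasi-likelihood test of edgeR. A miRNA is called changed below if it differed by over 2-fold with p under 0.05 before adjustment. The Benjamini-Hochberg adjustment was made over the 359 miRNAs. In none of the 8 comparisons made did edgeR, fitted to all 10 libraries, give any miRNA an adjusted p under 0.05, with 2 to 27 miRNAs per comparison at an unadjusted p under 0.05, and for the members the smallest adjusted p was 0.418. Some edgeR fits with a library left out did so for miRNAs that are not members. DESeq2 gave 0 to 8 miRNAs per comparison with an adjusted p under 0.05, none of them a member, and limma-voom 0. Where 0 members are called below, 0 also had an unadjusted p under 0.05, and 0 were called with DESeq2 and limma-voom. In bulk tissue, a difference in the number of cells that hold a miRNA and a difference in its amount per cell cannot be told apart.

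In stimulated tissue sampled at 1 h (MS_E against CIA_B) 2 of the 6 tested members were called, both higher, where 6.41% of all tested miRNAs were called and 5.29% were called higher. miR-223-3p rose 3.37-fold (log2 1.75 ± 0.57, SE, 95% interval 0.47 to 3.04), with p of 0.0128 in edgeR (Benjamini-Hochberg adjusted p = 0.418). This was the larger of the 2 called changes with all libraries. It was smaller than that of miR-146b-5p without MS_E replicate 2 (1.69 against 2.07) or without CIA_B replicate 1 (1.19 against 1.48). The libraries of miR-223-3p did not overlap between the groups, as was the case in this direction for 4 of the 6 members and 18.4% of all tested miRNAs. miR-146b-5p rose 2.74-fold (log2 1.46 ± 0.60, interval 0.10 to 2.81), with p of 0.0381 in edgeR (Benjamini-Hochberg adjusted p = 0.684). This call rested on MS_E replicate 1, without which the log2 change was 0.32 (edgeR, Benjamini-Hochberg adjusted p = 0.945). With limma-voom, the test used in the study, it was 1.22 and was not called (adjusted p = 0.938). The log2 changes of miR-146a-5p (1.02 ± 0.53) and miR-21-3p (1.64 ± 0.74) did not pass the test in edgeR (Benjamini-Hochberg adjusted p = 0.802 and adjusted p = 0.722) and were 0.28 and 0.03 without the same library. Without MS_E replicate 2 they were 1.48 and 2.35 and both were called, and miR-21-3p was also called with DESeq2 (1.65) and with the miR-1-3p split of the libraries as a term (1.53). The change of miR-21-5p was 0.69 ± 0.53 and that of miR-223-5p -0.63 ± 0.71, with both MS_E libraries below both CIA_B libraries for the latter (13.1% of all tested miRNAs). This separation is not secure, since miR-223-5p had 2 counts in CIA_B replicate 1 (exact 95% Poisson interval 0.210 to 6.25 cpm). In MS_E it had 9 and 7 counts. The median log2 change of the 6 members, which include both arms of miR-21 and of miR-223, was 1.24, against 0.06 over all tested miRNAs. This median depended on MS_E replicate 1. Without that library the 6 changes were 0.28 (miR-146a-5p), 0.32 (miR-146b-5p), 0.03 (miR-21-3p), 0.38 (miR-21-5p), 1.71 (miR-223-3p) and -0.83 (miR-223-5p). Without MS_E replicate 2 they were, in the same order, 1.48, 2.07, 2.35, 0.88, 1.69 and -0.5.

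In tissue of the placebo arm sampled at 1 h (PLA_E against CIA_B) 0 of the 6 members were called, where 0.557% of all tested miRNAs were. The log2 changes were 1.39 ± 0.74 for miR-21-3p, 1.00 ± 0.53 for miR-21-5p and 0.96 ± 0.56 for miR-223-3p, each with a Benjamini-Hochberg adjusted p = 0.994 in edgeR. The PLA_E libraries lay above both CIA_B libraries for both arms of miR-21 and for miR-146a-5p, as for 11.7% of all tested miRNAs. The log2 changes of the seed partners were 0.20 ± 0.53 for miR-146a-5p and 0.32 ± 0.59 for miR-146b-5p, and miR-223-5p had -0.39 ± 0.72. When the counts were scaled by library size only, both arms of miR-21 passed the thresholds, with log2 changes of 1.33 and 1.78, and this scaling moved the median of all tested miRNAs from 0.07 to 0.41. Both also passed on the TMM scale with the miR-1-3p split of the libraries as a term, with 1.12 and 1.59, and miR-21-5p (1.63) and miR-223-3p (1.86) passed without CIA_B replicate 2. The median over the members was 0.64.

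In stimulated tissue sampled at 34 days (MS_A against CIA_B) miR-223-3p alone of the 6 members was called, where 1.11% of all tested miRNAs were. It rose 2.73-fold (log2 1.45 ± 0.56, interval 0.18 to 2.72), with p of 0.0298 in edgeR (Benjamini-Hochberg adjusted p = 0.994), and it was the only member whose MS_A and CIA_B libraries did not overlap in this direction (16.2% of all tested miRNAs). The change of miR-21-5p was 0.87 ± 0.53 (Benjamini-Hochberg adjusted p = 0.994 in edgeR). The other changes were 0.42 ± 0.72 for miR-21-3p, 0.41 ± 0.59 for miR-146b-5p, 0.30 ± 0.77 for miR-223-5p and 0.29 ± 0.53 for miR-146a-5p, with a median over the members of 0.41 against 0.10 over all tested miRNAs.

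In tissue of the placebo arm sampled at 34 days (PLA_A against CIA_B) miR-21-5p alone of the 6 members was called, where 6.96% of all tested miRNAs were. It rose 2.64-fold (log2 1.40 ± 0.54, interval 0.19 to 2.61), with p of 0.0279 in edgeR (Benjamini-Hochberg adjusted p = 0.543). Its opposite arm miR-21-3p changed by 1.46 ± 0.74 on the log2 scale (Benjamini-Hochberg adjusted p = 0.547 in edgeR) and miR-223-3p by 1.16 ± 0.56 (adjusted p = 0.543), neither of which passed the test, and the libraries of all 3 lay above those of CIA_B, which held for 20.9% of all tested miRNAs. With the miR-1-3p split of the libraries as a term miR-21-3p passed the thresholds (1.49). The change of miR-223-3p was 2.06 without CIA_B replicate 2 and 0.57 without CIA_B replicate 1. The value of miR-146b-5p was -0.26 ± 0.59, a direction that turned when library size only was used (0.06), and that of miR-146a-5p was 0.50 ± 0.53. miR-223-5p had -0.92 ± 0.73 (Benjamini-Hochberg adjusted p = 0.723 in edgeR), opposite in sign to its main arm. Both PLA_A libraries lay below both CIA_B libraries for miR-146b-5p and miR-223-5p, as for 15.6% of all tested miRNAs. For miR-223-5p this rests on 4 and 5 counts in PLA_A and 2 and 16 in CIA_B. The fit without PLA_A replicate 1, the library rich in leukocyte miRNAs, gave log2 changes of 1.53 for miR-21-5p, no longer called (Benjamini-Hochberg adjusted p = 0.816 in edgeR), and 0.03 for miR-146a-5p. The median over the members was 0.83, against 0.11 over all tested miRNAs.

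The call of miR-223-3p in MS_E and MS_A and that of miR-21-5p in PLA_A depended on CIA_B replicate 1, the smallest library. Without it none of the 3 was called, with log2 changes of 1.19, 0.85 and 0.88 (edgeR, Benjamini-Hochberg adjusted p = 0.864, adjusted p = 0.994 and adjusted p = 0.928), and without CIA_B replicate 2 all 3 were, with 2.65, 2.35 and 2.03. CIA_B replicate 1 was the lowest of the 10 libraries for miR-223-3p, miR-21-5p and miR-21-3p, as it was for 68 of the 359 tested miRNAs (18.9%). The direction was the same with either library left out. The call of miR-223-3p in MS_A was also lost without MS_A replicate 1 (1.38) or replicate 2 (1.42), that of miR-21-5p in PLA_A without PLA_A replicate 2 (1.09), and that of miR-146b-5p in MS_E without CIA_B replicate 1 (1.48) or replicate 2 (1.42). For miR-223-3p in MS_A, scaling by library size only also ended the call (log2 1.34).

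Stimulation and placebo were then compared with each other at the same time, so that the difference itself holds no CIA_B value. The fit was still that of all 10 libraries, and those of CIA_B took part in its scaling and its estimate of the spread. At 1 h (MS_E against PLA_E) 0 of the 6 members were called, where 3.9% of all tested miRNAs were. The largest difference, of miR-146b-5p, was 1.14 ± 0.60 on the log2 scale (interval -0.21 to 2.48, Benjamini-Hochberg adjusted p = 0.832 in edgeR), and -0.01 without MS_E replicate 1 and 1.75, then called, without MS_E replicate 2. The differences of miR-146a-5p (0.82 ± 0.53) and miR-223-3p (0.80 ± 0.55, interval -0.45 to 2.04) were not past the test either, although both MS_E libraries lay above both PLA_E libraries for these members (16.4% of all tested miRNAs). At 34 days (MS_A against PLA_A) 0 of the 6 members were called, where 1.95% of all tested miRNAs were. The differences were 0.29 ± 0.55 for miR-223-3p, which turned to -0.03 with library size only, -0.54 ± 0.53 for miR-21-5p, -0.21 ± 0.53 for miR-146a-5p, 0.66 ± 0.59 for miR-146b-5p, -1.04 ± 0.72 for miR-21-3p and 1.22 ± 0.72 for miR-223-5p. Both MS_A libraries lay above both PLA_A libraries for miR-223-3p (7.52% of all tested miRNAs) and below them for miR-21-3p (12.5%). The difference of miR-223-5p rests on 4 to 20 counts per library, and it was 1.88 and called without MS_A replicate 2 but -0.07 without MS_A replicate 1. The intervals of all 6 differences held 0 and reached beyond a 2-fold difference in at least 1 direction.

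The libraries at 34 days were compared with those at 1 h over both arms, 4 against 4. Of the 6 members 0 were called, where 4.74% of all tested miRNAs were. The widest difference was that of miR-146b-5p, -0.81 ± 0.42 on the log2 scale (Benjamini-Hochberg adjusted p = 0.801 in edgeR), which was -0.27 without MS_E replicate 1 and -1.12, then called, without MS_E replicate 2. miR-223-3p (-0.05 ± 0.39, interval -0.93 to 0.83) and miR-21-5p (0.29 ± 0.37) were closer to 0. In the interaction of arm and time, again 0 of the 6 members were called (3.34% of all tested miRNAs), with log2 values from -1.28 ± 1.01 for miR-21-3p to 1.46 ± 1.00 for miR-223-5p. The 95% intervals of all 6 interaction values held 0.

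**Figure D2:**
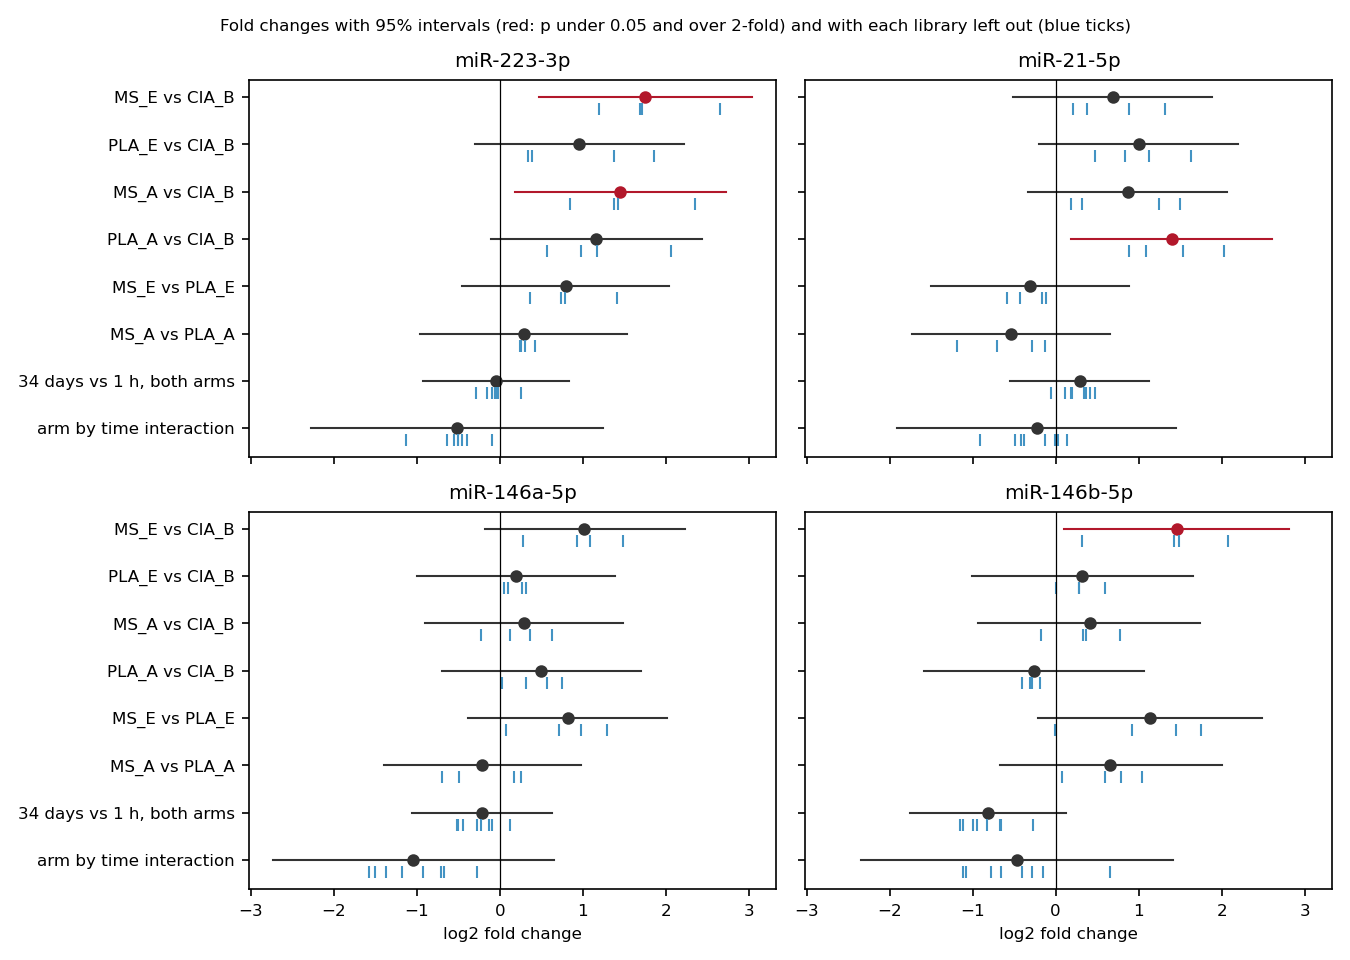
Log2 fold changes of the 4 main arms in the 8 comparisons (points, with 95% intervals as lines) and with each library left out in turn (blue ticks). Red marks an unadjusted p under 0.05 with more than 2-fold change, which applies to miR-223-3p in MS_E and MS_A, miR-21-5p in PLA_A and miR-146b-5p in MS_E, each against CIA_B.

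The values of the members were also compared between the libraries with more and with less miR-1-3p. In the library with less miR-1-3p, miR-146a-5p and both arms of miR-21 were higher in 4 of the 5 groups, and miR-223-3p and miR-146b-5p in 3, which was not tested. Among the libraries with more miR-1-3p, miR-223-3p in MS_E, PLA_E, MS_A and PLA_A was 6.75, 5.01, 4.96 and 4.17 times its level in CIA_B. Among those with less miR-1-3p, it was 2.30, 0.894, 2.04 and 1.64 times. Both times MS_E was highest. For miR-21-5p the same ratios were 2.14, 3.40, 1.74 and 3.64 with more miR-1-3p, and 1.36, 1.32, 1.86 and 2.17 with less, and PLA_A was highest both times. The ratio of miR-146b-5p in MS_E was 1.27 with more miR-1-3p and 4.30 with less. Each of these ratios compares 1 library with 1 library and has no test. With the miR-1-3p split as a term in the edgeR fit, these calls were kept, with log2 changes of 1.74 for miR-223-3p in MS_E (Benjamini-Hochberg adjusted p = 0.205), 1.44 in MS_A (adjusted p = 0.848) and 1.47 for miR-21-5p in PLA_A (adjusted p = 0.296).

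Ratios within a library do not depend on the scaling between libraries. miR-146a-5p made up 27.5% of the reads of the seed pair in MS_E replicate 1 and 56.1% in PLA_A replicate 1, the lowest and the highest of the 10 libraries, with a median of 35.4%. It made up 34.5% and 37.8% in CIA_B, 35.5% in MS_E replicate 2, 28.7% and 41.1% in PLA_E, 33.9% and 35.3% in MS_A, and 39.9% in PLA_A replicate 2. PLA_A replicate 1 was the only library with more miR-146a-5p than miR-146b-5p. The exact 95% binomial (Clopper-Pearson) intervals were 0.681 to 3.32 percentage points wide, and those of the libraries of a group did not overlap in any of the 5 groups.

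The strand miR-21-3p made up 1.24% of the reads of both miR-21 arms in MS_E replicate 1 (interval 1.11 to 1.38%). In the other 9 libraries it made up 0.261% (MS_A replicate 1) to 0.680% (PLA_E replicate 1), so that its high level in MS_E replicate 1 was not shared in full by miR-21-5p. miR-223-5p made up 1.54% to 14.3% of the miR-223 reads. The highest share, in CIA_B replicate 1, was 2 of 14 reads with an interval of 1.78 to 42.8%.

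**Figure D3:**
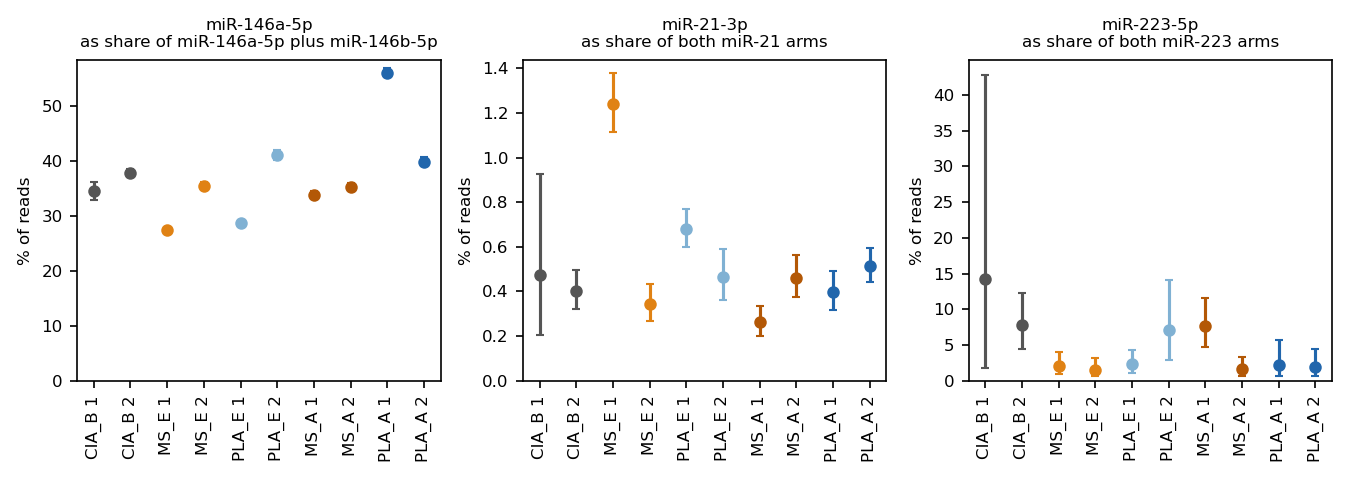
Share in % of miR-146a-5p in the reads of miR-146a-5p plus miR-146b-5p, and of miR-21-3p and miR-223-5p in the reads of both arms of their hairpin, in each library (linear axes from 0; bars are exact 95% binomial intervals, which cover counting error only). PLA_A replicate 1 stands at 56.1% in the first panel and MS_E replicate 1 at 1.24% in the second.

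Levels of miRNAs that mark cell types were set beside those of the members. The leukocyte miRNAs miR-142-3p, miR-142-5p and miR-150-5p were all called higher in PLA_A against CIA_B, with log2 changes of 6.03, 4.36 and 2.88, and miR-142-3p and miR-142-5p were called lower in MS_A against PLA_A (-4.25 and -3.71). miR-142-5p was also called higher at 34 days than at 1 h (1.59) and lower in the interaction (-3.58). Their summed level was 12713 cpm in PLA_A replicate 1 and 1108 cpm in PLA_A replicate 2. Between these libraries miR-223-3p did not differ in this way, with 43.3 cpm in the former and 45.9 cpm in the latter. Neither did miR-21-5p, with 5311 and 6661 cpm. miR-146a-5p was higher in the former, 1829.8 against 1021 cpm. Over all 10 libraries, however, miR-21-5p and miR-142-5p had similar orders of level (Spearman's rho 0.83). In MS_E the leukocyte sum was 522 and 1713 cpm and in MS_A 747 and 1736 cpm, against 678 and 557 cpm in CIA_B, and 0 of the 3 leukocyte miRNAs were called in either comparison. The arms of miR-142 differed from this sum. miR-142-3p was at 4.33 and 5.0 cpm in CIA_B and at 7.17 cpm or more in the 8 libraries after therapy, and miR-142-5p at 101 and 209 cpm against 226 cpm or more. Both thus lay above both CIA_B libraries in 8 of 8 libraries after therapy, as 12 of the 359 tested miRNAs did (3.34%). The log2 change of miR-142-3p against CIA_B was 1.90 ± 1.29 in MS_E, 2.51 ± 1.32 in PLA_E and 1.78 ± 1.29 in MS_A, and that of miR-142-5p 0.85 ± 0.86, 0.98 ± 0.86 and 0.65 ± 0.86, none of them called. Those of miR-223-3p were 1.75, 0.96 and 1.45.

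**Figure D4:**
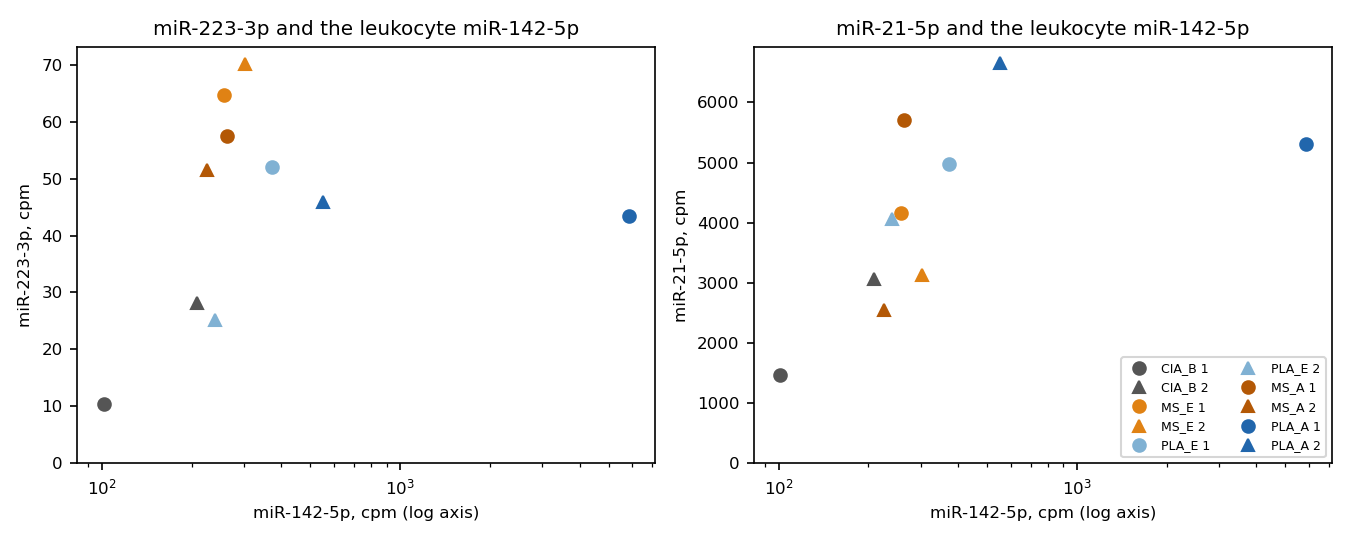
Level of miR-223-3p and of miR-21-5p (cpm, linear axis from 0) against the leukocyte miRNA miR-142-5p (cpm, log axis) in the 10 libraries. PLA_A replicate 1 lies far to the right at 5855 cpm of miR-142-5p, with miR-223-3p at 43.3 cpm and miR-21-5p at 5311 cpm, inside the range of the other libraries. Over the 10 libraries Spearman's rho of miR-21-5p with miR-142-5p was 0.83.

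Of the erythroid miRNAs, miR-451-5p was called higher in MS_E (log2 1.60) and miR-144-3p and miR-144-5p in PLA_A (2.85 and 1.50), each against CIA_B, and their sum was 24.2 and 17.5 cpm in CIA_B, 88.6 and 24.4 cpm in MS_E, 39.7 and 17.4 cpm in PLA_E, 42.2 and 58.9 cpm in MS_A, and 42.6 and 67.8 cpm in PLA_A. miR-144-5p was also called higher at 34 days than at 1 h (1.08). The epidermal miRNAs miR-203a-3p and miR-205 summed to 28.6 and 66.6 cpm in CIA_B to 138 and 101 cpm in MS_E, 90.9 and 53.0 cpm in PLA_E, 112 and 63.9 cpm in MS_A, and 94.4 and 102 cpm in PLA_A, and neither was called in any comparison. None of the 4 tested skeletal muscle, 2 endothelial and 3 fibroblast miRNAs was called either. MS_E replicate 1, the highest library for miR-146b-5p, had the lowest endothelial sum (4275 cpm against 8494 to 14719 cpm in the other 9) and the lowest skeletal muscle sum (83910.2 cpm against 91580 to 268532 cpm). The fibroblast sum was 1418 to 3495 cpm over the 10 libraries. All marker miRNAs tested were detected in each library, and the part of these other cell types in the values of the members was not tested.

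A list of 10 other miRNAs known to respond to inflammatory signals or to act on the same pathways was read in the same fit. None was called in MS_E, PLA_E or MS_A against CIA_B, in the comparisons of the arms, or over time. In PLA_A against CIA_B 2 of 10 were called, both higher, where 6.96% of all tested miRNAs were called. miR-147, a miRNA induced in macrophages by Toll-like receptor ligands, rose by 2.24 ± 0.82 on the log2 scale (Benjamini-Hochberg adjusted p = 0.543 in edgeR), from 0 and 0.588 cpm in CIA_B to 3.74 and 3.10 cpm in PLA_A. The 0 in CIA_B replicate 1 allows 2.60 cpm at 3 counts and more by the exact interval, so the size of this change is uncertain. The fit also draws changes at such low counts toward 0. miR-187-3p rose by 2.54 ± 1.01 (adjusted p = 0.543), with 35.6 cpm in PLA_A replicate 2 and 5.73 cpm in replicate 1. The median log2 change of the list was 0.24 in this comparison and 0.26 in MS_E against CIA_B, where that of all tested miRNAs was 0.11 and 0.06.

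The miRNAs most like each main arm across the 10 libraries were named by Spearman's rho of the log2 level. This is a description over points that share their depth and library composition. For miR-223-3p they were miR-495 (0.85), miR-205 (0.84), which is a miRNA of the epidermis, and miR-200b-3p (0.82), of which only miR-205 had at least 20 counts in every library. For miR-21-5p they were miR-147 (0.85), miR-142-5p (0.83) and miR-203b-3p (0.83), of which miR-147 had 0 to 19 and miR-203b-3p 0 to 32 counts per library. For miR-146a-5p they were miR-20a-5p (0.76), miR-130b-3p (0.75) and miR-19b-3p (0.75), and for miR-146b-5p miR-132-3p (0.85), miR-221-5p (0.78) and miR-31a-5p (0.68), of which miR-130b-3p, miR-221-5p and miR-31a-5p had as few as 1, 3 and 2 counts in a library. Between members the value was 0.75 for both arms of miR-21, 0.44 for miR-146a-5p with miR-146b-5p, 0.32 for miR-223-3p with miR-21-5p, and -0.19 for both arms of miR-223.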

How the data were processed

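Small RNA was sequenced by the authors with the TruSeq small RNA kit on an Illumina HiSeq instrument. They trimmed the adapters, discarded reads under 18 bases, aligned the rest to rn4 and miRBase and counted them with miRDeep2 (CASAVA 1.8 and Bowtie are also in the submitters' processing notes). The deposited values are whole read counts per miRNA and library, without normalization. Where a mature miRNA was listed at several precursors, as 35 were, its largest count was taken, and each member has 1 precursor. The combined table was left aside, since its 20 columns carry names that match no label.

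From the counts, TMM factors and quasi-likelihood tests came from edgeR 4.0.16 (R 4.3.3), fitted to the 359 miRNAs reaching 1 cpm in 5 or more of the 10 libraries, with a mean for each of the 5 groups. SE is the log2 change divided by the root of F. The fit used a prior count of 2, which draws the log2 changes of scarce miRNAs toward 0. Their SE and intervals are narrowed with them. The study used limma-voom, which was an alternative here (limma 3.58.1), with DESeq2 1.42.0, DESeq2 size factors, library size only, no filter, a fit of only the libraries compared, a replicate block, the miR-1-3p split as a term and each library left out. With 2 libraries against 2, no permutation test was made. A miRNA is called when its unadjusted p is under 0.05 and its change over 2-fold. The members and the lists were chosen with earlier results of these data known. All members are named, with the 3 tested miRNAs most like each main arm (ties in rho in name order) and the called members of the lists.

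On 10 simulated data sets with 200 of 359 miRNAs changed in MS_A against PLA_A, the thresholds called 25.4% at a true 2-fold change, 63.6% at 4-fold and 90.9% at 8-fold. In MS_E against PLA_E, where nothing was changed in the simulation, they called 4.51%. The chi-square of the counts of a group's libraries was 1471 to 8619 times its degrees of freedom, so none was taken for a duplicate. Sequences and coordinates are from RefSeq (GRCr8) and were matched by name, while the counts were made on rn4. Summaries used pandas 2.3.3, scipy 1.17.1 and matplotlib 3.10.9 in Python 3.11.15.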

Additional observations from a re-analysis of the deposited data

Results flagged for a closer look

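The 4 libraries of each time, 2 of each arm, were searched for a value far from the others, in 12 sets (6 tested miRNAs at 2 times). The measure was the gap to the next value over the range. Its rate of about 1 in 20 by chance holds for normal values of 1 population only. Each set mixes both arms and libraries with more and with less miR-1-3p, and the sets share libraries. The number marked is therefore not set against chance. At 1 h, MS_E replicate 1 stood apart with miR-146a-5p at 2815 cpm and miR-146b-5p at 7430.5 cpm. At 34 days, MS_A replicate 1 stood apart with miR-146b-5p at 3181 cpm, and with miR-223-5p at 4.75 cpm, which is 20 counts. Both are the library of their group with less miR-1-3p, and the part of that in these values was not tested.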

How the results depend on the processing

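No member had an adjusted p under 0.05 with any of the settings run, the smallest being 0.194 without MS_E replicate 2. Of the log2 changes of the 6 members recomputed with each setting, 567 kept their direction and side of the threshold, 17 newly passed it, 14 no longer passed it and 26 turned. The cause of these changes was not tested. The call of miR-223-3p in MS_E held in 8 of 8 settings with all libraries and in 3 of 4 with a library left out, in MS_A in 7 and 1, that of miR-21-5p in PLA_A in 7 and 1, and that of miR-146b-5p in MS_E in 6 and 1. Counts of 12 (miR-223-3p) and 8 (miR-21-3p) in CIA_B replicate 1 limit every comparison with CIA_B. The replicate numbers did not pair the libraries (correlations of deviations between groups from -0.544 to 0.587, over 0.1 in 4 of 10 pairs of groups). The 4 are the pairs of groups in which the library with more miR-1-3p has the same number, and the other 6 were negative. With the replicate block the called members were the same, while called miRNAs fell to 1 in PLA_E against CIA_B, 4 in MS_A against PLA_A and 7 in the interaction.

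Members called in MS_E against CIA_B (2) were 1 with limma-voom and with only the libraries compared, and 3 with DESeq2 and with the miR-1-3p term. In PLA_E against CIA_B (0) they were 2 with library size only and with the miR-1-3p term, in MS_A against CIA_B (1) 0 with library size only, and in PLA_A against CIA_B (1) 0 with only the libraries compared and 2 with the miR-1-3p term. All called miRNAs, by the thresholds of the study, changed with the miR-1-3p term to 41 in MS_E (from 23), 9 in PLA_E (2), 10 in MS_A (4) and 47 in PLA_A (25) against CIA_B, 22 in MS_E against PLA_E (14) and 14 in MS_A against PLA_A (7). Without the filter they were 38 in MS_E against CIA_B, 29 in MS_E against PLA_E and 26 over time (17). With limma-voom they were 9 in MS_E against PLA_E, 1 in MS_A against PLA_A and 4 in the interaction (12), with only the libraries compared 6 in PLA_E and 12 in MS_A against CIA_B, with DESeq2 5 in PLA_E against CIA_B, and with library size only 4 in PLA_E and 2 in MS_A against CIA_B and 7 in the interaction.

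Log2 changes turned with library size only for miR-146b-5p in PLA_A against CIA_B (0.06), miR-21-3p in MS_E against PLA_E (-0.37) and miR-223-3p in MS_A against PLA_A (-0.03), with limma-voom for miR-223-5p in MS_A against CIA_B (-0.39) and over time (-0.05) and for miR-21-3p in MS_E against PLA_E (-0.13), and with the miR-1-3p term for the latter (-0.06).

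With each library left out, members called were 0 to 4 in MS_E, 0 to 2 in PLA_E, 0 to 1 in MS_A and 0 to 2 in PLA_A against CIA_B, and 0 to 1 in each of the other 4 comparisons. All called miRNAs were 1 to 9 in PLA_E, 2 to 7 in MS_A and 9 to 27 in PLA_A against CIA_B, 7 to 35 in MS_E against PLA_E, 2 to 14 in MS_A against PLA_A, 7 to 28 over time and 3 to 17 in the interaction. The log2 changes that turned ranged, in MS_A against CIA_B, from -0.23 to 0.63 (miR-146a-5p), -0.18 to 0.78 (miR-146b-5p) and -1.02 to 0.94 (miR-223-5p). In MS_E against PLA_E they ranged from -0.01 to 1.75 (miR-146b-5p), -1.34 to 0.97 (miR-21-3p) and -0.51 to 0.04 (miR-223-5p), and in MS_A against PLA_A from -0.70 to 0.26 (miR-146a-5p) and -0.07 to 1.88 (miR-223-5p). Over time they ranged from -0.52 to 0.12 (miR-146a-5p), -0.94 to 0.20 (miR-21-3p), -0.06 to 0.47 (miR-21-5p), -0.29 to 0.26 (miR-223-3p) and -0.47 to 0.52 (miR-223-5p), and in the interaction from -1.11 to 0.65 (miR-146b-5p), -2.00 to 0.28 (miR-21-3p) and -0.91 to 0.14 (miR-21-5p).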
